A study of Mus musculus with 86 samples.

Results

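The clustered protocadherins are a family of cell surface adhesion proteins encoded by the neighbouring Pcdha, Pcdhb and Pcdhg gene clusters on mouse chromosome 18. Members were taken as the protein-coding rows of the count table whose Ensembl identifiers carry a Pcdha, Pcdhb or Pcdhg isoform symbol in GENCODE vM21, which gave 24 of 35275 rows. These comprised 22 of the 22 Pcdhb genes (Pcdhb1 to Pcdhb22), 1 of the 14 Pcdha genes and 1 of the 21 Pcdhg genes. The remaining 33 genes of the family were not analysed here.

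Clustered protocadherins are single-pass membrane proteins with extracellular cadherin repeats that bind the same isoform on an opposing cell. Each neuron uses a small set of isoforms, chosen promoter by promoter with the help of CTCF, cohesin and DNA methylation, and this set is known to let a neuron tell its own branches from those of other cells. A Pcdha or Pcdhg transcript joins 1 variable exon to constant exons that encode a shared cytoplasmic tail, whereas a Pcdhb gene is a single exon with no constant part.

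Expression was measured by RNA-seq in punches of prefrontal cortex, hippocampus and hypothalamus from wild house mice (Mus musculus domesticus) of both sexes, living freely in a barn and captured outside the breeding season. The animals had either a large or a small social network size, that is, many or few different partners met in nest boxes per day, which the sample labels give as high or low gregariousness. There were 86 libraries from 29 animals, with 7 animals in each combination of sex and network size, except 8 males with small networks in prefrontal cortex and hippocampus. All animals were untreated and of wild origin, and each library came from 1 animal. The animals' kinship is not given in the sources used here, and their ages, estimated in the study, are not in the labels.

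Library totals ranged from 33711824 to 81865801 counts, and the 24 rows held between 0.0801% and 0.117% of them. The 7 prefrontal cortex markers summed to 830 to 1360 CPM (read counts scaled to a common library total) in prefrontal cortex and to at most 522 CPM elsewhere. The 10 hypothalamus markers overlapped between regions, since 1 hypothalamus library reached only 221 CPM against a highest value of 281 CPM in hippocampus. The 7 hippocampus markers also overlapped, at 356 to 549 CPM in hippocampus and 349 to 463 CPM in hypothalamus. Genes of the olfactory epithelium, a tissue outside the brain, summed to 618, 600 and 218 CPM in the prefrontal cortex libraries of animals 30, 8 and 29, whereas the other 26 prefrontal cortex libraries had a median of 5.05 CPM and a highest value of 75.6 CPM. Member calls that changed without the prefrontal cortex libraries of animals 30, 8 and 29 are given both ways, and changed pairs in part as counts. Leaving these 3 libraries out was chosen after seeing the data.

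The row for the Pcdha cluster, ENSMUSG00000007440, is named Pcdha11 in GENCODE vM21 and spans chr18:37005203-37187657 on the plus strand of GRCm38. A second identifier carries the same symbol there, and RefSeq places Pcdha10 at nearly this span, so the isoform of the row is uncertain and it is called the Pcdha row. Only 46.6% of its exonic bases are not shared with another gene, because the constant exons belong to every Pcdha isoform. The row for the Pcdhg cluster, ENSMUSG00000023036 or Pcdhgc4, is a C-type gene at chr18:37815079-37841873, and 62.1% of its exonic bases are unshared. Their values are therefore given as row levels, since reads of other isoforms in the constant exons may have been counted there. The 22 Pcdhb genes run from Pcdhb1 at chr18:37264938-37267525 to Pcdhb22 at chr18:37517871-37524479, all on the plus strand and with 1 exon each. An antisense gene, Gm37446, leaves 36.5% of Pcdhb12 unshared, so that reads of this overlap cannot be separated without strand information. Pcdhb21 and Pcdhb22 overlap each other on the same strand, where strand information does not separate their reads. Outside these 3 genes, at most 0.222% of the 150-base stretches of a Pcdhb gene occurred in another gene. Of the 50-base stretches at most 9.52% did, in Pcdhb11, and 8.75% in Pcdhb9 and 7.21% in Pcdhb10. Whether reads of wild mice were assigned correctly among these similar genes was not tested.

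The Pcdhgc4 and Pcdha rows had the highest levels. The Pcdhgc4 row averaged 705 ± 63.1 CPM in prefrontal cortex (SD, n = 29), 566 ± 34.5 CPM in hippocampus (SD, n = 29) and 539 ± 42.8 CPM in hypothalamus (SD, n = 28). The Pcdha row averaged 207 ± 16.3 CPM, 160 ± 8.45 CPM and 124 ± 6.61 CPM in the same order of regions. No single Pcdhb gene averaged above 19.2 CPM, and together the 22 Pcdhb genes summed to 183 ± 19.6 CPM in prefrontal cortex, 181 ± 11.9 CPM in hippocampus and 157 ± 15.5 CPM in hypothalamus.

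Among the Pcdhb genes the level per kilobase of exon was uneven, and its order was similar across regions. Pcdhb9 had the highest level, at 6.06, 6.30 and 5.09 CPM per kilobase in prefrontal cortex, hippocampus and hypothalamus, and held 13.3%, 13.9% and 12.99% of the summed Pcdhb level per kilobase. Pcdhb1, the first gene of the cluster, had the lowest level, at 0.158, 0.145 and 0.314 CPM per kilobase. The 5 highest genes of each region held between 44.4% and 46.3% of the summed level. Across the 22 genes, the log2 levels per kilobase of prefrontal cortex and hippocampus had r = 0.99 and rho = 0.94, and those of prefrontal cortex and hypothalamus had r = 0.96 and rho = 0.92. These correlations are across genes, which share the same libraries and are not independent replicates. Position along the cluster was weakly related to level per kilobase (rho = 0.14 over 22 genes).

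**Figure D1:**
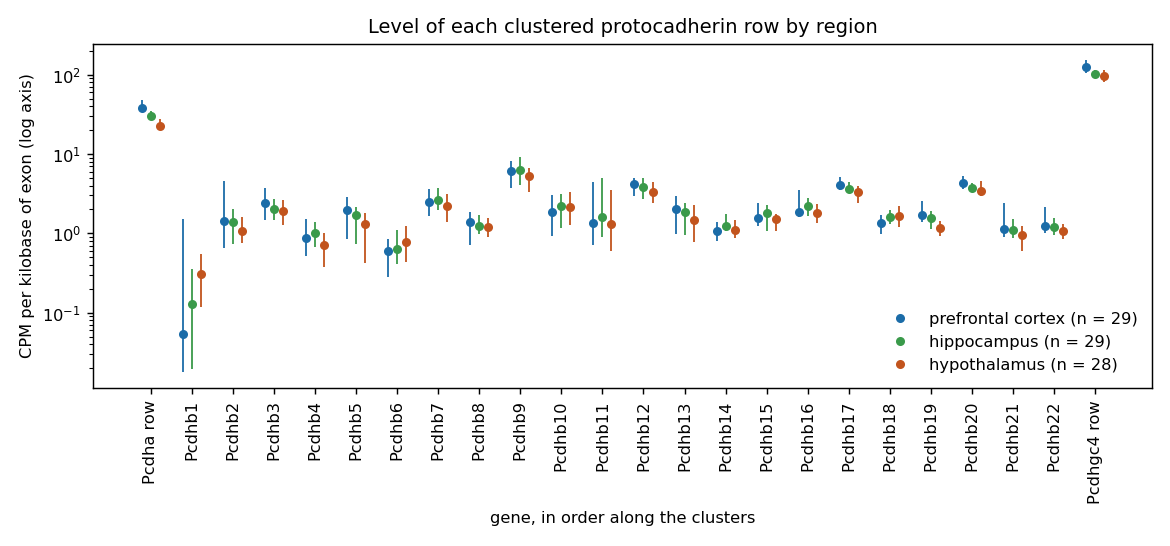
Level of each row in CPM per kilobase of exon (log axis), in order along the clusters, with points at the median and lines from the lowest to the highest library of prefrontal cortex (n = 29), hippocampus (n = 29) and hypothalamus (n = 28). The Pcdha and Pcdhgc4 rows stand above every Pcdhb gene, Pcdhb9 leads the Pcdhb genes, and Pcdhb1 is lowest with the longest line in prefrontal cortex.

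The comparison of regions asked whether the isoforms were used to the same extent in different parts of the brain, with each animal as a block in edgeR's quasi-likelihood test and Benjamini-Hochberg adjustment over all genes. Most members were lower in hypothalamus. Against prefrontal cortex, 17 of 24 members were lower in hypothalamus, where 39.1% of all genes tested were lower, and 5 of 24 were higher, where 42.2% of all genes were. The median log2 fold change was -0.26 over the members and 0.02 over all genes. Against hippocampus, 19 of 24 members were lower in hypothalamus, beside 39.5% of all genes, and 2 of 24 were higher, beside 36.8% of all genes, with medians of -0.23 and -0.01. Between hippocampus and prefrontal cortex the members divided, with 9 of 24 higher in hippocampus, beside 38.8% of all genes, and 10 of 24 lower, beside 33.3% of all genes, with medians of -0.07 and 0.02. Some calls changed without the 3 libraries with the highest olfactory epithelium genes. Pcdhb8 was then also lower in hippocampus than in prefrontal cortex (adjusted p = 0.0155, against 0.0660 with them), and Pcdhb1 was also higher. Pcdhb3 was then no longer lower in hypothalamus than in hippocampus (adjusted p = 0.109, against 0.0460 with them).

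The Pcdha row fell stepwise from prefrontal cortex to hippocampus to hypothalamus. It ranged from 189 to 256 CPM in prefrontal cortex (median 202), from 146 to 186 CPM in hippocampus (median 161) and from 116 to 149 CPM in hypothalamus (median 122). Every prefrontal cortex library was above every hippocampus library, and hippocampus and hypothalamus overlapped only between 146 and 149 CPM. The log2 fold change was -0.74 ± 0.02 (SE) for hypothalamus against prefrontal cortex (adjusted p = 7.93e-42), -0.37 ± 0.02 for hippocampus against prefrontal cortex (adjusted p = 8.15e-26) and -0.37 ± 0.02 for hypothalamus against hippocampus (adjusted p = 1.62e-25).

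The Pcdhgc4 row, whose gene is known for its part in neuron survival, ranged from 595 to 865 CPM in prefrontal cortex (median 695), from 513 to 637 CPM in hippocampus (median 563) and from 451 to 645 CPM in hypothalamus (median 530). The 3 ranges overlapped. Its log2 fold change was -0.39 ± 0.02 for hypothalamus against prefrontal cortex (adjusted p = 2.03e-22), -0.31 ± 0.02 for hippocampus against prefrontal cortex (adjusted p = 4.54e-18) and -0.07 ± 0.02 for hypothalamus against hippocampus (adjusted p = 0.00546).

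Among the Pcdhb genes, Pcdhb5 and Pcdhb19 had the lowest log2 fold changes for hypothalamus against prefrontal cortex. Pcdhb5 ranged from 2.98 to 10.2 CPM in prefrontal cortex (median 6.97), from 2.61 to 7.59 CPM in hippocampus (median 6.08) and from 1.48 to 6.34 CPM in hypothalamus (median 4.64), so that the regions overlapped widely. Its log2 fold change was -0.62 ± 0.04 for hypothalamus against prefrontal cortex (adjusted p = 5.96e-22). Pcdhb19 had medians of 12.3, 11.1 and 8.42 CPM in prefrontal cortex, hippocampus and hypothalamus, and its log2 fold change for hypothalamus was -0.58 ± 0.04 against prefrontal cortex (adjusted p = 1.43e-20) and -0.40 ± 0.04 against hippocampus (adjusted p = 1.59e-13). Pcdhb9 was lower in hypothalamus than in hippocampus by a log2 fold change of -0.32 ± 0.03 (adjusted p = 1.01e-15), and did not pass the test between hippocampus and prefrontal cortex (0.06 ± 0.03, adjusted p = 0.0752). Pcdhb3 was lower in hippocampus than in prefrontal cortex (-0.23 ± 0.03, adjusted p = 1.50e-08).

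A smaller set was higher in hypothalamus or hippocampus than in prefrontal cortex. Pcdhb6 had medians of 2.24, 2.42 and 2.88 CPM in prefrontal cortex, hippocampus and hypothalamus, with overlapping ranges, and was higher in hypothalamus than in prefrontal cortex (log2 fold change 0.45 ± 0.06, adjusted p = 7.24e-11) and than in hippocampus (0.26 ± 0.06, adjusted p = 3.13e-05). Pcdhb18 had medians of 6.80, 8.11 and 8.24 CPM and was higher than in prefrontal cortex in both hippocampus (0.26 ± 0.04, adjusted p = 1.48e-08) and hypothalamus (0.26 ± 0.04, adjusted p = 1.27e-08). Pcdhb14, with medians of 9.19, 10.8 and 9.65 CPM, and Pcdhb11, with medians of 5.98, 7.14 and 5.74 CPM, were higher in hippocampus than in prefrontal cortex (0.28 ± 0.03, adjusted p = 6.41e-12, and 0.27 ± 0.04, adjusted p = 2.49e-09), and both were lower in hypothalamus than in hippocampus (-0.17 ± 0.03 and -0.34 ± 0.04, adjusted p = 1.79e-06 and 2.33e-12). Pcdhb4 was also higher in hippocampus than in prefrontal cortex (0.27 ± 0.05, adjusted p = 7.50e-06) and lower in hypothalamus than in hippocampus (-0.51 ± 0.05, adjusted p = 2.16e-13) and than in prefrontal cortex (-0.25 ± 0.05, adjusted p = 2.82e-05).

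**Figure D2:**
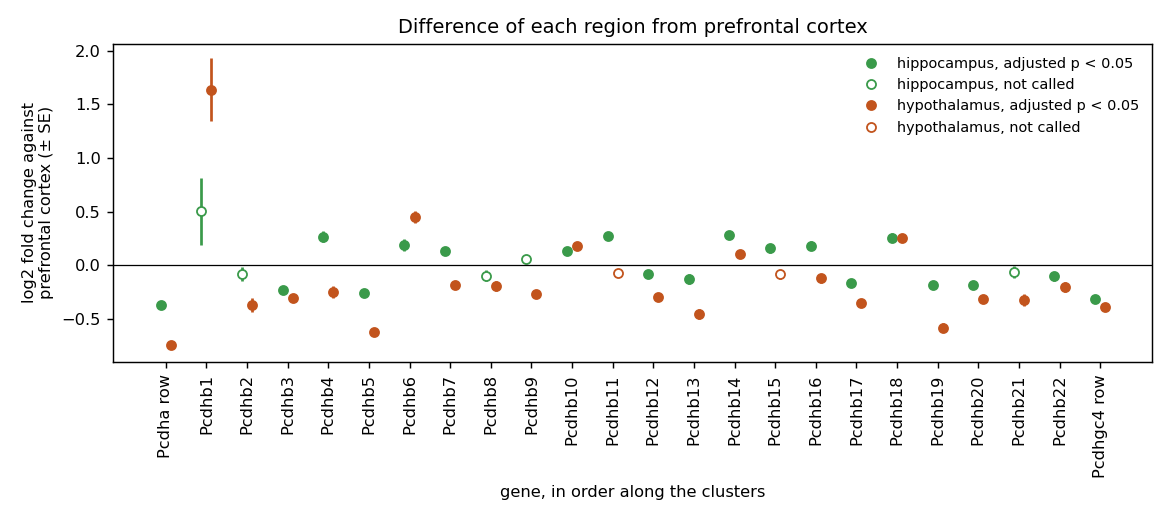
Log2 fold change of each row in hippocampus and in hypothalamus against prefrontal cortex, with bars of 1 SE from edgeR; filled points have an adjusted p under 0.05 over all genes. The hypothalamus points lie below 0 for 19 of the 24 rows, with the lowest at the Pcdha row (-0.74) and the highest at Pcdhb1 (1.63).

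Pcdhb1 had the largest difference between regions and the fewest counts, from 2 to 182 per library. It ranged from 0.0465 to 3.88 CPM in prefrontal cortex (median 0.140), from 0.0510 to 0.920 CPM in hippocampus (median 0.332) and from 0.305 to 1.41 CPM in hypothalamus (median 0.790). The highest prefrontal cortex values, 3.88, 2.92 and 1.19 CPM, came from animals 30, 8 and 29, the libraries with the highest olfactory epithelium genes, and the other 26 reached at most 0.503 CPM. The log2 fold change for hypothalamus against prefrontal cortex was 1.63 ± 0.29 (adjusted p = 1.00e-06) with these libraries and 2.47 ± 0.17 (adjusted p = 2.31e-20) without them. For hippocampus against prefrontal cortex it was 0.50 ± 0.31 (adjusted p = 0.144) with them and 1.31 ± 0.18 (adjusted p = 4.75e-09) without them. In hypothalamus, the libraries of animals 7, 9, 6 and 8 had 102, 85.8, 56.2 and 54.9 CPM of olfactory epithelium genes. Their Pcdhb1 levels were 0.934, 1.41, 0.483 and 1.39 CPM in that order, and no hypothalamus library was left out. The library of animal 8 also had the highest prefrontal cortex value of Pcdhb2 (12.8 CPM against at most 6.48 in the other 26), Pcdhb16 (18.2 against at most 13.3), Pcdhb21 (11.3 against at most 6.89) and Pcdhb22 (14.1 against at most 10.4), whereas the libraries of animals 29 and 30 had 1.83 and 2.54 CPM of Pcdhb2, below the lowest of the other 26 (2.89 CPM).

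In bulk tissue, fewer cells of a type and less RNA per cell cannot be told apart. Of 10 neuron markers, 9 were lower in hypothalamus than in prefrontal cortex and 1 was higher, with a median log2 fold change of -0.63, and their sum ranged from 8637 to 10218 CPM in prefrontal cortex, from 6352 to 7234 CPM in hippocampus and from 4951 to 6024 CPM in hypothalamus. All 8 oligodendrocyte markers were higher in hypothalamus, with a median of 0.66. The part of these differences in the members' region values was not tested.

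Other genes of the pathway were counted from lists. Of all genes tested, 39.1% were lower and 42.2% higher in hypothalamus than in prefrontal cortex. Of 20 tested regulators of the clusters, which include CTCF, cohesin and DNA methylation genes, 9 were lower and 8 higher in hypothalamus than in prefrontal cortex, with a median log2 fold change of -0.01. Ctcf, which encodes the factor that links protocadherin promoters to their enhancers, was lower in hypothalamus (-0.23 ± 0.02, adjusted p = 7.53e-19), as was Smchd1, a chromatin protein that represses the clusters (-0.14 ± 0.03, adjusted p = 5.69e-05), and Dnmt3b, a DNA methyltransferase, was higher (0.29 ± 0.08, adjusted p = 0.00101). Of 21 signalling and trafficking partners, 14 were lower and 6 higher in hypothalamus than in prefrontal cortex, with a median of -0.26. Ptk2 and Ptk2b, the kinases FAK and PYK2 that bind the protocadherin cytoplasmic tail, were both lower (-1.18 ± 0.03, adjusted p = 9.07e-44, and -1.75 ± 0.07, adjusted p = 2.04e-32). Of the 12 non-clustered protocadherins, single genes outside the clusters, 6 were higher and 4 lower in hypothalamus than in prefrontal cortex, with a median of 0.22.

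The next comparison asked whether individual animals differed in the isoforms, by testing the animals of the same sex and network size against one another over their 3 regions. In edgeR's quasi-likelihood test, 21 of 24 members differed between animals at an adjusted p under 0.05, or 87.5%, beside 62.9% of all genes tested. The 3 that did not were Pcdhb1 (adjusted p = 0.0578), Pcdhb21 (0.0572) and Pcdhb22 (0.0949). Without the 3 prefrontal cortex libraries with the highest olfactory epithelium genes, Pcdhb1 passed (adjusted p = 0.0217) and Pcdhb21 had an adjusted p of 0.246. In prefrontal cortex and hypothalamus alone, 6 members lost the call. In prefrontal cortex and hippocampus alone 5 did, and in hippocampus and hypothalamus alone 4. The Pcdha row and Pcdhb18 lost it in each of these fits, which hold fewer libraries. Repeatability, the share of the variance within sex and network size that lay between animals rather than between the regions of an animal, had a median of 0.551 over the members and 0.280 over all genes, and 20 of 24 members were above the latter. Counting error lowers repeatability where counts are few. In the same test, 18 of 20 regulators of the clusters, 15 of 21 signalling and trafficking partners and 7 of 12 non-clustered protocadherins differed between animals.

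Repeatability was uneven along the cluster. Pcdhb2 to Pcdhb13 had values from 0.483 to 0.943 with a median of 0.726, and Pcdhb14 to Pcdhb22 had values from 0.139 to 0.579 with a median of 0.326. Across the 22 Pcdhb genes, repeatability and position from Pcdhb1 had r = -0.42 and rho = -0.50, and repeatability and mean level had r = 0.34 and rho = 0.07. The split into these stretches was made after the values were seen. The Pcdha and Pcdhgc4 rows had values of 0.362 and 0.340. Protein-coding genes within 500 kb of the clusters, 28 in number, had values from -0.103 to 0.758 with a median of 0.220. This set was chosen after the members' values were seen. The highest were Cd14 at 0.758, Rell2 at 0.704, Dnd1 at 0.654 and Arap3 at 0.618. Of the 28 genes, Taf7 (0.224) and Slc25a2 (0.0738) lie inside the span of the clusters.

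**Figure D3:**
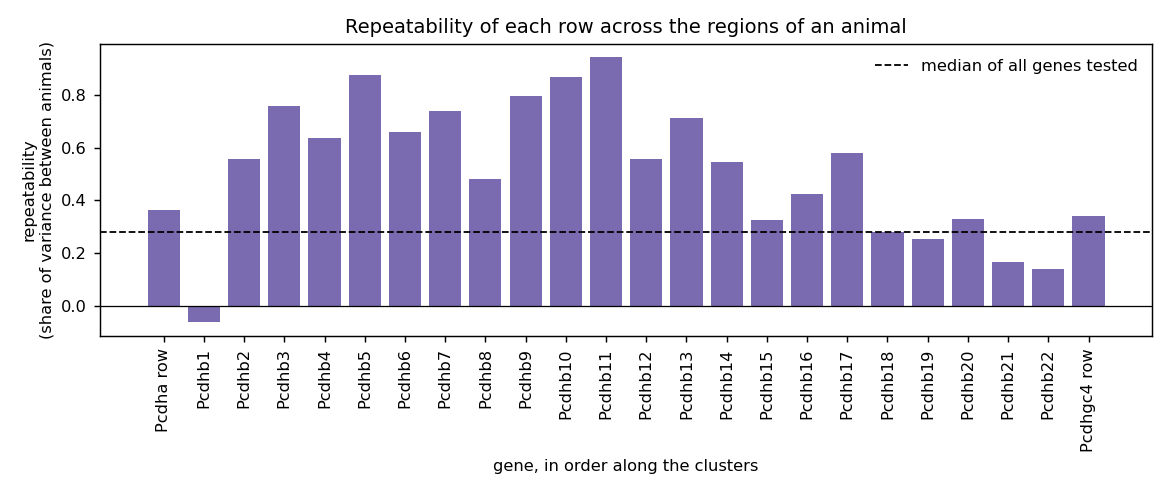
Repeatability of each row, in order along the clusters, as the share of variance within sex and network size that lay between animals; the dashed line is the median of all genes tested (0.280). Pcdhb11 is highest at 0.943, and the bars of Pcdhb2 to Pcdhb13 are all above the line while several of Pcdhb14 to Pcdhb22 are at or below it.

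Pcdhb11 (chr18:37421418-37425836) differed most between animals. It ranged from 3.18 to 19.6 CPM in prefrontal cortex (median 5.98, a 6.15-fold range), from 4.01 to 21.8 CPM in hippocampus (median 7.14) and from 2.61 to 15.4 CPM in hypothalamus (median 5.74). Animal 1, a female with a large network, was highest in all 3 regions, and animal 4, a female with a small network, was lowest in all 3. The 7 animals with the highest prefrontal cortex values, from 8.83 CPM up against at most 7.15 CPM in the rest, were also the 7 highest in hippocampus, and the 6 of them with a hypothalamus library were the 6 highest there. This cut at 7 lies at a gap in the same values and was not set in advance. These 7 animals came from all 4 combinations of sex and network size: 2 females and 2 males with large networks, 2 females and 1 male with small networks. Its repeatability of 0.943 was exceeded by 81 of 18769 genes, and its test between animals gave an adjusted p of 4.65e-30 in edgeR. Without the 3 animals with the highest Pcdhb11, a fit chosen after seeing the data, its adjusted p was 3.09e-20.

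**Figure D4:**
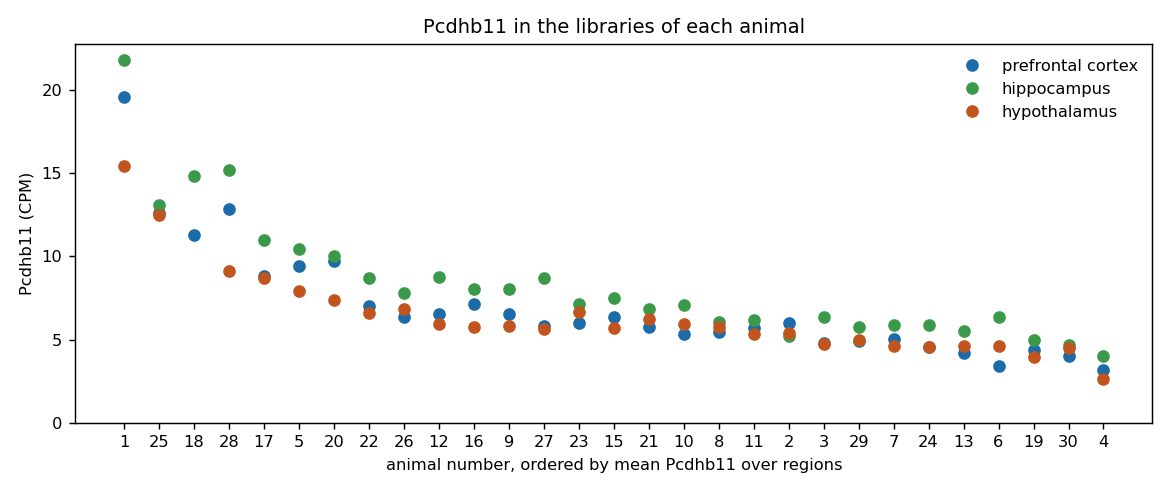
Pcdhb11 in CPM in the prefrontal cortex, hippocampus and hypothalamus libraries of each of the 29 animals, ordered by their mean over regions; animal 18 has no hypothalamus library. The points of an animal lie together and run from animal 4, lowest in each region, to animal 1, highest in each region (19.6, 21.8 and 15.4 CPM).

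The levels of an animal's regions were related for most of the early Pcdhb genes. Over the animals, 72 relations were computed (24 members in 3 pairs of regions), on log2 levels with permutation p-values from 100000 resamples adjusted over the 72. The same relations were not computed for other genes, so the counts have no share over all genes beside them. For Pcdhb11, prefrontal cortex and hippocampus had r = 0.95 and rho = 0.91 over 29 animals (permutation p = 1e-05 for both, the smallest the resamples can give, adjusted p = 3.6e-05 and 4.5e-05). Without the 2 animals farthest from the prefrontal cortex median it was r = 0.92, and within sex and network size r = 0.96. For prefrontal cortex and hypothalamus r was 0.94 over 28 animals, and for hippocampus and hypothalamus 0.93. All 12 genes from Pcdhb2 to Pcdhb13 passed both tests between prefrontal cortex and hippocampus, with a median r of 0.75, whereas 2 of the 9 from Pcdhb14 to Pcdhb22 did, with a median r of 0.39. Between prefrontal cortex and hypothalamus 11 of 12 and 5 of 9 did, and between hippocampus and hypothalamus 12 of 12 and 3 of 9. Pcdhb1, outside both stretches, had r = -0.22 between prefrontal cortex and hippocampus. The stretches were split after repeatability, computed from the same levels, was seen. These counts are therefore not a separate test of that split.

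Pcdhb5 and Pcdhb10 came next. Pcdhb5 (chr18:37320381-37323915) had a repeatability of 0.876 (adjusted p = 2.60e-18) and Pcdhb10 (chr18:37411664-37414514) one of 0.866 (adjusted p = 4.37e-18). In prefrontal cortex Pcdhb10 ranged from 2.68 to 8.63 CPM (median 5.25), and both genes were lowest in animal 18. Pcdhb9 and Pcdhb3 followed with 0.797 (adjusted p = 1.12e-13) and 0.759 (adjusted p = 5.67e-12). Pcdhb9 ranged from 11.3 to 24.6 CPM in prefrontal cortex, again with the lowest value in animal 18, and Pcdhb3 from 5.64 to 14.0 CPM.

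By size of spread alone, Pcdhb1 had the highest SD of the members in each region, with an SD of log2 levels within sex and network size of 1.12 in prefrontal cortex, 0.61 in hippocampus and 0.51 in hypothalamus. Pcdhb11 had SDs of 0.61, 0.58 and 0.51, so that in hypothalamus the 2 genes hardly differed. Without the prefrontal cortex libraries of animals 8, 29 and 30, the SD of Pcdhb1 in prefrontal cortex was 0.46 and that of Pcdhb11 0.62. The repeatability of Pcdhb1 was -0.0623 with these libraries and 0.258 without them, and that of Pcdhb11 was 0.943 and 0.940. Pcdhb1 had r = 0.39 and rho = 0.33 between hippocampus and hypothalamus over 28 animals (adjusted p = 0.0542 and 0.118, permutation tests). The Pcdha and Pcdhgc4 rows had SDs between 0.08 and 0.13, at percentiles from 3.11 to 21.6 among all genes of the region.

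Animals that were high in one Pcdhb gene tended to be high in others. Pairs of other genes were not computed, so the counts below have no share over all genes beside them. Among 276 pairs of members, tested over 29 animals on the mean of each animal's region-centred log2 levels, 80 passed both permutation tests after adjustment over the 276, and 79 of these were positive. Without the 3 libraries with the highest olfactory epithelium genes 79 pairs passed, of which 74 were positive and 5 negative, and 73 pairs passed both ways. The highest was Pcdhb5 with Pcdhb10 (r = 0.89, rho = 0.85, adjusted p = 0.000251 and 0.000394). This pair kept r = 0.83 without the 2 animals farthest from the median of Pcdhb5, and r = 0.90 within sex and network size. Pcdhb15 with Pcdhb16 had r = 0.84 (rho = 0.80) and Pcdhb2 with Pcdhb3 had r = 0.82 (rho = 0.84). Of the 21 pairs of neighbouring Pcdhb genes, 13 passed, with a median r of 0.65. The negative pair with all libraries was Pcdhb8 with the Pcdhgc4 row (r = -0.45, rho = -0.58, adjusted p = 0.0400 and 0.00785). The 5 negative pairs without the 3 libraries were Pcdhb2, Pcdhb3, Pcdhb8 and Pcdhb16, each with the Pcdhgc4 row, and Pcdhb9 with Pcdhb22. Pcdhb2 had the lowest r of these (r = -0.62, rho = -0.59, adjusted p = 0.00406 and 0.00690, permutation tests).

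Pcdhb11 lay outside this pattern. It passed both tests with 1 other member, its neighbour Pcdhb12 (r = 0.56, rho = 0.55, adjusted p = 0.00902 and 0.0145). Without the 2 animals farthest from the median of Pcdhb11, this pair had r = 0.50. When the 3 libraries with the highest olfactory epithelium genes were left out, Pcdhb11 also passed both permutation tests with Pcdhb1 (r = 0.45, rho = 0.47, adjusted p = 0.0440 and 0.0376). With Pcdhb5 it had r = -0.57 (adjusted p = 0.00872) but rho = -0.20 (adjusted p = 0.454). Without animals 1 and 18, the 2 farthest from the median of Pcdhb5, r was -0.23, so that the relation rests largely on those animals. With Pcdhb9 it had r = -0.55 and rho = -0.39 (adjusted p = 0.00902 and 0.0900), and with Pcdhb10 r = -0.47 and rho = -0.19 (adjusted p = 0.0324 and 0.470). Animal 1 had 3.68 CPM of Pcdhb5 and 3.34 CPM of Pcdhb10 in prefrontal cortex, below the medians of 6.97 and 5.25 CPM, and animal 18 had 2.98 and 2.68 CPM.

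**Figure D5:**
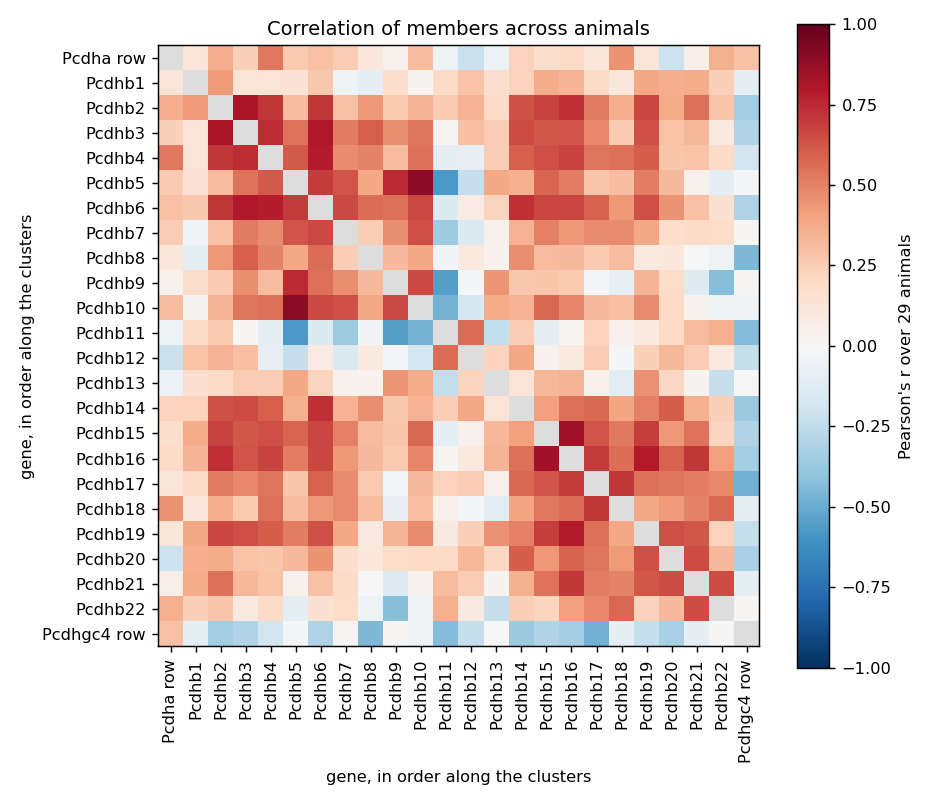
Pearson's r between members over 29 animals, from the mean of each animal's region-centred log2 levels; red is positive, blue negative, grey the diagonal. Most Pcdhb genes are red with one another, up to 0.89 for Pcdhb5 with Pcdhb10, and Pcdhb11 is blue with Pcdhb5, Pcdhb9 and Pcdhb10 and red with Pcdhb12 (0.56).

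The comparison of animals with small and large networks, the study's main question, was made within each sex and region. No member passed an adjusted p of 0.05 in any of the 6 comparisons by edgeR's quasi-likelihood test. In females, 0 of 23 members tested were called in prefrontal cortex (0.0113% of all genes), 0 of 24 in hypothalamus (0.00552%) and 0 of 24 in hippocampus (0% of all genes). In males, 0 members were called in each region, beside 0% of all genes in prefrontal cortex, 0% in hypothalamus and 0% in hippocampus. At an unadjusted p under 0.05 there were 4 members in prefrontal cortex of females (9.59% of all genes), 1 in hypothalamus (7.39%) and 2 in hippocampus (12.2%), and in males 0 members in prefrontal cortex (2.52%), hypothalamus (2.90%) and hippocampus (3.88%).

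The member nearest to the threshold was Pcdhb14. In prefrontal cortex of females it ranged from 8.87 to 11.96 CPM with small networks (median 10.96) and from 7.05 to 9.56 CPM with large networks (median 8.32), and the groups overlapped. The means were 10.7 ± 1.19 and 8.45 ± 0.813 CPM (SD, n = 7 each; exact permutation test, two-sided p = 0.00291), and the log2 fold change of small against large was 0.34 ± 0.09 (adjusted p = 0.360). DESeq2 called it at the edge of the threshold (adjusted p = 0.04997), 1 of the 24 members, beside 74 genes of 20744 with an adjusted p, and called 0 members in the other 5 comparisons. The same gene had the smallest p in hippocampus of females, at 12.5 ± 1.73 against 10.8 ± 1.20 CPM (log2 fold change 0.21 ± 0.10, adjusted p = 0.394). The other 3 members of the prefrontal cortex of females were Pcdhb7, Pcdhb18 and Pcdhb21, with log2 fold changes of 0.37, 0.30 and 0.36 and adjusted p from 0.421 to 0.503. Without the library of animal 8, 1 of the 3 with the highest olfactory epithelium genes and the only one from females, Pcdhb21 was at 0.18 ± 0.10 with an unadjusted p of 0.0849 in edgeR, which left 3 members at an unadjusted p under 0.05, and DESeq2 no longer called Pcdhb14 (adjusted p = 0.0816).

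In hypothalamus Pcdhb4 had the smallest p in both sexes. It was 2.94 ± 0.534 CPM in females with small networks and 2.32 ± 0.524 CPM in those with large networks (log2 fold change 0.35 ± 0.16, adjusted p = 0.658), and 2.9998 ± 0.538 against 2.49 ± 0.435 CPM in males (0.28 ± 0.15, adjusted p = 0.9996). In males the smallest p in prefrontal cortex was that of Pcdhb12, at 11.5 ± 1.26 CPM against 12.4 ± 1.44 CPM (-0.11 ± 0.09, adjusted p = 0.99999), and in hippocampus that of Pcdhb1, at 0.212 ± 0.0955 against 0.370 ± 0.273 CPM (-0.77 ± 0.41, adjusted p = 0.999). For Pcdhb11 the log2 fold changes of small against large network size lay between -0.24 and -0.01 in the 6 comparisons, with SEs from 0.16 to 0.33.

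Between females and males, 0 members passed the adjusted threshold in prefrontal cortex (0.0976% of all genes), hypothalamus (0.117%) or hippocampus (0.102%) by edgeR, and DESeq2 called 0 in each. At an unadjusted p under 0.05 there were 3 members in prefrontal cortex (4.98% of all genes; 2 without the 3 libraries with the highest olfactory epithelium genes), 3 in hypothalamus (6.79%) and 6 in hippocampus (5.99%). Pcdhb9 had the smallest p in prefrontal cortex, where it ranged from 14.95 to 24.6 CPM in females (median 20.7) and from 11.3 to 20.6 CPM in males (median 17.2), with overlapping groups. Its log2 fold change of females against males was 0.29 ± 0.08 in prefrontal cortex (adjusted p = 0.410) and 0.26 ± 0.08 in hippocampus (adjusted p = 0.704). Pcdhb12 had the smallest p in hypothalamus, at 10.7 ± 1.07 CPM in 14 females and 9.59 ± 1.05 CPM in 14 males (0.16 ± 0.06, adjusted p = 0.573).

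The effect of network size was tested for a difference between the sexes with an interaction term. No member passed the adjusted threshold in prefrontal cortex (0% of all genes), hypothalamus (0%) or hippocampus (0%), and at an unadjusted p under 0.05 there were 3 members in prefrontal cortex (4.17% of all genes), 0 in hypothalamus (6.14%) and 0 in hippocampus (7.37%). DESeq2 called 1 member, Pcdhb1 in prefrontal cortex (log2 difference 4.88 ± 1.06, adjusted p = 0.00837), which edgeR's filter on low counts left out in that region. The 3 prefrontal cortex libraries with the highest Pcdhb1, those of animal 8 (a female with a small network) and animals 29 and 30 (males with large networks), are those with the highest olfactory epithelium genes. Without them DESeq2 gave 0.84 ± 0.66 (adjusted p = 0.9999) and called 0 members.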

How the data were processed

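RNA-seq libraries of prefrontal cortex, hippocampus and hypothalamus were analysed from the gene counts that the authors deposited. Per the methods and labels, the authors punched the regions from frozen sections, sequenced paired-end libraries, mapped cleaned reads to GRCm38/mm10 with STAR and counted reads per gene with HTSeq, without normalization. The labels also name CASAVA 1.8.2 and DESeq2. The annotation release and strand setting are not given in the sources used here. Identifiers were matched to GENCODE vM21, which holds 34490 of the 35275 rows. Groups were taken from the sample labels and animals from the sample numbers.

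Genes were kept by filterByExpr of edgeR 4.0.16 (R 4.3.3; minimum count 10, minimum total 15, proportion 0.7), and libraries were scaled by TMM. Levels are TMM-scaled CPM. Log2 levels used an offset of 0.1 CPM. Region contrasts used all 86 libraries with the animal as a block, because same-numbered samples are regions of 1 animal. The animal test took 25 coefficients of animals within sex and network size. Network size comparisons used the 2 groups compared, and sex and interaction used all libraries of a region. All used the quasi-likelihood F test with Benjamini-Hochberg adjustment and a threshold of 0.05. DESeq2 1.42.0 was the alternative. Single values were tested by exact permutation, or with 100000 resamples where both groups had 10 or more. The scripts were tested on simulated data. With 7 against 7 or 8 animals, counting error and animal number limit the precision.

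Named members were those of the C type, the highest and lowest per kilobase, the 3 smallest p in each direction of each region contrast, the smallest p in each size and sex comparison, the 5 smallest p between animals, and the largest spread in each region. Others that are named, with Pcdhb4 among the region contrasts, were chosen after their values were seen. The members and gene lists were chosen with earlier results of these data known, and the olfactory epithelium list was added after the data were seen. Replicates are separate animals, and no litter or batch is given in the sources used here.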

Additional observations from a re-analysis of the deposited data

Results flagged for a closer look

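In groups of 7 or 8 animals, a sample was singled out where its gap to the next sample, divided by the range of the group, exceeded Dixon's 95% critical value. This held in 13 of 168 groups of named members (7.74%). The rate of about 1 in 20 that chance gives does not apply, since some members were named for their spread and regions share animals.

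Pcdhb11 was singled out in 4 groups. Animal 1, a female with a large network, was the highest of its group in prefrontal cortex (19.6 CPM, next 8.83), hippocampus (21.8 CPM, next 10.97) and hypothalamus (15.4 CPM, next 8.71). Animal 18, a male with a small network, was highest in hippocampus (14.8 CPM, next 8.78). The same animal 18 was lowest for Pcdhb5 in prefrontal cortex (2.98 CPM, next 6.73) and hippocampus (2.99 CPM, next 5.47).

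Pcdhb1 was singled out in prefrontal cortex for animal 8, a female with a small network (2.92 CPM, next 0.503), and for animal 30, a male with a large network (3.88 CPM, next 1.19), 2 of the 3 libraries with the highest olfactory epithelium genes (600 and 618 CPM). The part of those genes in these values was not tested.

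In prefrontal cortex of males with small networks, the Pcdhgc4 row was lowest in animal 15 (595 CPM, next 695), Pcdhb18 was highest in the same animal (8.61 CPM, next 7.23), and the Pcdha row was highest in animal 16 (246 CPM, next 215). The Pcdha row was highest in the hypothalamus of animal 23, a female with a small network (133 CPM, next 124). Pcdhb6 was lowest in the prefrontal cortex of animal 4, a female with a small network (1.26 CPM, next 2.52).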

How the results depend on the processing

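Of 180 alternative counts of called members, 177 stayed within 1.5 times the reported count. For network size, sex and their interaction the reported counts were 0, and hardly any gene passed there, so that agreement says little. The region contrasts held the animal as a replicate block. With no replicate block, 5 members rather than 9 were higher in hippocampus than in prefrontal cortex, and the members lost in that contrast were Pcdhb6, Pcdhb7, Pcdhb10, Pcdhb11, Pcdhb12 and Pcdhb13; without the block Pcdhb1 turned to a log2 fold change of -0.11 there. With DESeq2, 1 member was called for network size in prefrontal cortex of females (Pcdhb14) and 1 for sex by network size in prefrontal cortex (Pcdhb1); without the prefrontal cortex libraries of animals 8, 29 and 30 DESeq2 called 0 in both. Without these libraries the repeatability of Pcdhb1 moved from -0.0623 to 0.258. Without animals 12 and 19, Pcdhb8 and Pcdhb9 were also called for hippocampus against prefrontal cortex, and Pcdhb22 was no longer called there. Leaving out each animal in turn gave 0 to 0 called members in all 6 network size comparisons. The log2 fold change of Pcdhb18 for hypothalamus against hippocampus, which was -0.00119 and not called, was 0.00982 with RLE size factors, 0.0122 with all genes of at least 1 count, 0.0107 with DESeq2 and 0.0167 without the prefrontal cortex libraries of animals 8, 29 and 30, a setting chosen after seeing the data. Of 294 alternative values of named members, 272 kept their direction and their side of the threshold or moved little, 10 lost the call and 3 gained it. Pcdhb3 was no longer called for hypothalamus against hippocampus under 5 of them. Dividing the same counts by the unshared exonic length alone, an upper limit since reads of shared exons stay in the counts, moved the level per kilobase of the Pcdha row to 65.5, of the Pcdhgc4 row to 174 and of Pcdhb12 to 10.4 CPM per kilobase. The cause of these changes was not tested. Low counts limit what can be said of Pcdhb1, and shared exons what can be said of the Pcdha and Pcdhgc4 rows.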
